A study of Rattus norvegicus with 11 samples.

Results

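Enzymes that add or remove acetyl groups on histones, and those that methylate DNA, were examined in the medial prefrontal cortex of rats abstinent from heroin. The members are 9 genes, the acetyltransferases Myst2, Crebbp and Ep300, the deacetylases Hdac1, Hdac2, Hdac3 and Hdac5, and the DNA methyltransferases Dnmt1 and Dnmt3a. They were chosen by name, with results of these arrays already known, and every non-control array probe carrying one of these gene names was taken, which gave 19 of 41012 probes. All 19 were detected on every array and were tested. Because the genes were picked with the heroin to saline contrast in view, their differences are given below as a description.

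Acetylation of histone tails loosens the hold of nucleosomes on DNA and is read by bromodomain proteins, so acetyltransferases generally accompany active transcription and deacetylases reverse the mark. DNA methylation at cytosines, set by Dnmt3a and copied after replication by Dnmt1, is maintained in adult neurons. These enzymes are studied in addiction because drug exposure leaves changes in gene expression that outlast the drug.

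RNA came from 11 male rats 4 months old, with 1 single-colour Agilent rat array per rat. The 6 heroin rats had self-administered infusions of heroin by responding on a spout and the 5 saline rats had received yoked infusions of saline, so that drug intake and control over the infusion differ together between the groups. All had 14 days of enforced abstinence and a single extinction session, in the former drug context and without drug, before the tissue was taken. Strain and genotype are not given in the sources used here. The tissue was cortex dissected as a block, in which fewer cells of a type and less RNA per cell cannot be told apart.

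Signals are given in multiples of the array median, that is, of the 50th percentile over non-control probes. They compare rats at 1 probe and not probes with each other, since probes bind with different efficiency. The array medians were 42.7 to 78.3 intensity units in the heroin group, lowest in heroin rat 6, and 58.0 to 83.2 in the saline group. All 6 heroin arrays lay at slide position 4 and all 5 saline arrays at position 3, so that position and group cannot be told apart. Markers of cortical neurons were detected for 6 of 6 genes, with a summed signal of 557 to 834 in heroin and 522 to 721 in saline rats. The summed signal of the other marker lists also overlapped between the groups. It was 115 to 379 against 121 to 358 for oligodendrocytes (5 of 5 genes detected), 388 to 529 against 313 to 474 for astrocytes (5 of 5) and 86.6 to 165 against 88.5 to 133 for microglia (4 of 5, without Itgam). It was 75.9 to 138 against 61 to 102 for endothelium (4 of 4), 6.94 to 20.2 against 7.53 to 20.3 for blood (2 of 2) and 17.3 to 24.4 against 15.3 to 26.8 for striatum (4 of 5, without Drd2). Probe by probe, 4 of 9 oligodendrocyte probes were higher in heroin rats with the median scaling, and 0 of 9 after quantile normalization or with the 75th percentile, with median log2 differences of -0.01, -0.26 and -0.23. The neuronal probes had 10, 8 and 6 of 11 higher, with medians of 0.28, 0.14 and 0.06. Over all tested probes, 78.7%, 51.7% and 41.7% were higher under these scalings. No probe of the marker lists passed the thresholds given below, and the part of cell composition in any value was not tested.

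The probes are 60 bases long, and the sequences that bear on the results are shown as printed on the array, 5′ to 3′. The Myst2 probes are shown because they gave different sizes of difference, the first in full and the second by its first 30 bases.

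Myst2 A_44_P283366: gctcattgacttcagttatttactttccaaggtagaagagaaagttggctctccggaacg
Myst2 A_42_P572366: tgaagtgcttctgtctaagaactaactcat

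By the array files these lie at chr10:83977807-83980136 and chr10:83975052-83975111 of build rn3. The first 60-base probe spans 2330 bases of the genome, so it crosses at least 1 splice junction. RefSeq now names the gene Kat7.

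The next pair is shown because the probes of Hdac2 overlap on opposite strands. Capitals mark the 11 bases that are the reverse complement of each other in the first 30 bases of each probe.

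Hdac2 A_44_P139916: AAGAAACCTTCgctgtttgaggaagtttgg
Hdac2 A_44_P491158: GAAGGTTTCTTatcccagaatcgtctcact

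The first runs from low to high coordinates at chr20:41209043-41209102, and the second from high to low at chr20:41208994-41209053. A similar pair from Hdac5 is shown in full because its probes are neighbours, 1 base apart, and also run in opposite directions.

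Hdac5 A_44_P339659: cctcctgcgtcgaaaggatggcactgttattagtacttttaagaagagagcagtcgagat
Hdac5 A_44_P473020: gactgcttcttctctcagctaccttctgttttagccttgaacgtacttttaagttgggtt

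They lie at chr10:91291636-91291695, from high to low, and chr10:91291697-91291756, from low to high. Set against the strand of each gene in RefSeq (assembly GRCr8, all 9 genes matched), 17 of the 19 probes ran with their gene. Hdac2 A_44_P491158 and Hdac5 A_44_P473020, 2 in all, ran against it. An array probe binds labelled copies of RNA that carries its own sequence, so signal at these probes cannot be read as the level of Hdac2 or Hdac5 messenger RNA. Their values are described apart from those of the other probes, and counts over the set are given with and without them.

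The Dnmt1 probes are shown because their differences had opposite signs, the positive one near 0 with other scalings.

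Dnmt1 A_44_P388853: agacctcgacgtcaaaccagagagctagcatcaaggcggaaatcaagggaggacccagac
Dnmt1 A_44_P125681: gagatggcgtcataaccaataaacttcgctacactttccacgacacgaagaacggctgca

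They lie at chr8:19952832-19955199 and chr8:19929047-19929106, and both run from high to low coordinates, so the first is nearer the start of the gene. The first covers 2368 bases of the genome and so also crosses a splice junction. The exons these probes lie in were not analysed here.

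Of the acetyltransferases, Myst2 is the MYST family enzyme of the HBO1 complexes, which acetylate histones H3 and H4. At Myst2 A_44_P283366 the heroin rats had a lowest, median and highest signal of 0.861, 1.20 and 1.51 array medians. Saline rats 2 to 6, the order in which saline values are given throughout, had 0.800, 0.683, 0.630, 0.909 and 0.932. The groups overlapped through a single animal, heroin rat 6, and the other 5 heroin rats lay above every saline rat. Mean signal was 1.19 ± 0.27 (SD, n = 6) against 0.791 ± 0.134 (SD, n = 5), a log2 difference of 0.58 (SE 0.17) or 1.49-fold. It was the only member probe past both of the study's thresholds, 0.02 for the unadjusted p and 1.4 for the fold change, and its adjusted p by limma was 0.263. The study had put this probe on its own list from these same arrays, so that passing is no independent evidence. Over all 25555 tested probes, 694 passed both thresholds, or 2.72%, of which 1.79% were higher and 0.923% lower in heroin rats. Its signal was 4.01 times the lowest signal scored well above background. Scaling the arrays to their 75th percentile gave 0.36 and the normexp background correction 0.29, and both took the probe under the thresholds.

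The second Myst2 probe, A_42_P572366, was also higher in heroin rats but by less. The heroin rats had a lowest, median and highest signal of 11.7, 14.0 and 17.3. The saline rats had 12.3, 9.22, 10.9, 13.3 and 10.1. Here 4 of 6 heroin rats lay above the highest saline rat. The log2 difference was 0.33 (SE 0.14), and 0.08 after quantile normalization, where the listed probe kept 0.59. The mean over both Myst2 probes gave 0.45 (SE 0.14), under the 1.4-fold threshold (0.49 on the log2 scale). After each group was centred on its own mean, the 2 Myst2 probes correlated over the 11 rats with Pearson r = 0.51 and Spearman rho = 0.40, with the arrays and their scaling shared.

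**Figure D1:**
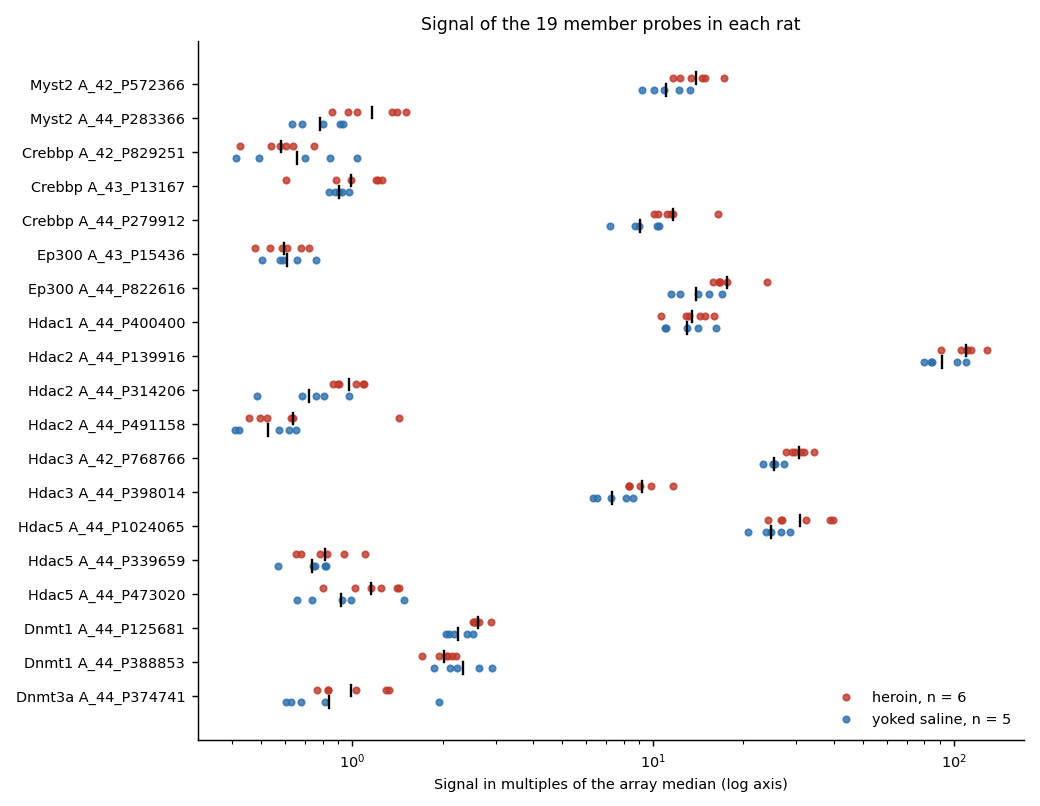
Signal of each of the 19 member probes in each rat, in multiples of the array median on a log axis, with heroin rats (n = 6) in red, yoked saline rats (n = 5) in blue and a black line at the mean of the log2 values of each group. Positions along the axis compare rats within a row and not rows with each other, and in 1 row, Hdac3 A_42_P768766, the groups do not overlap.

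Crebbp and Ep300 are the related coactivator acetyltransferases CBP and p300, which CREB recruits to its target genes. Each had a probe well above the array median that was higher in heroin rats, and dim probes with smaller or negative differences. At Crebbp A_44_P279912, printed in 10 spots per array, the heroin rats had a lowest, median and highest signal of 10.1, 11.3 and 16.4, and the saline rats 7.19, 8.70, 10.3, 10.5 and 9.03. The log2 difference was 0.37 (SE 0.15), and 0.12 after quantile normalization. The highest value belonged to heroin rat 6, and the groups overlapped. At Crebbp A_43_P13167 the difference was 0.14 (SE 0.18) and at A_42_P829251 it was -0.18 (SE 0.22). These dim Crebbp probes ran against the bright probe across rats, with r = -0.58 and -0.80 over 11 group-centred values (rho = -0.24 and -0.78), and with each other at r = 0.48. After quantile normalization the first pair had r = -0.58 but rho = 0.00, and the second r = -0.36 and rho = -0.26.

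Ep300 A_44_P822616 had a lowest, median and highest signal of 15.9, 16.6 and 24.0 in heroin rats. In saline rats it had 11.5, 14.1, 15.4, 17 and 12.4. Only 2 of 6 heroin rats exceeded the highest saline rat, and the log2 difference was 0.35 (SE 0.15), or 0.10 after quantile normalization. The dim probe A_43_P15436, at 0.600 ± 0.090 in heroin and 0.616 ± 0.096 in saline rats (SD, n = 6 and 5), differed by -0.04 (SE 0.14). The ratio of the dim to the bright Ep300 probe within an array, from which any single scale factor of the array cancels, was 0.0287 to 0.0383 in heroin and 0.0339 to 0.0536 in saline rats, and 3 of 6 heroin rats lay below the lowest saline rat. The log2 difference of this ratio was -0.38, and -0.04 after quantile normalization, which treats dim and bright probes differently. Averaged over its probes, Crebbp differed by 0.11 (SE 0.12) and Ep300 by 0.15 (SE 0.13).

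Of the deacetylases, Hdac3 is the catalytic subunit of the NCoR and SMRT corepressor complexes. At Hdac3 A_42_P768766 (chr18:30884152-30884211) the heroin rats had a lowest, median and highest signal of 27.8, 30.5 and 34.4. The saline rats had 25.2, 25.1, 25.6, 27.3 and 23.2. Every heroin rat was above every saline rat, the only member probe with groups that did not overlap, against 1.8% of all tested probes. The difference was 1.21-fold, or 0.28 on the log2 scale (SE 0.11), and it was 0.02 after quantile normalization and 0.06 with the 75th percentile. The second Hdac3 probe, A_44_P398014 (chr18:30888509-30888817), had 8.31, 8.71 and 11.7 as its lowest, median and highest heroin values and 8.17, 6.34, 7.28, 8.58 and 6.51 in saline rats. Its log2 difference was 0.33 (SE 0.14), or 0.09 after quantile normalization. The Hdac3 probes followed each other across rats, with r = 0.66 and rho = 0.62 over 11 group-centred values, and their ratio within an array was 2.93 to 3.83 in heroin and 3.08 to 3.96 in saline rats.

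Hdac1 and Hdac2 are the paired catalytic subunits of the Sin3, NuRD and CoREST complexes. At Hdac2 A_44_P314206 (chr20:41194007-41194066) the heroin rats had a lowest, median and highest signal of 0.867, 0.970 and 1.1, and the saline rats 0.757, 0.680, 0.484, 0.976 and 0.808. The difference of 0.44 (SE 0.16), or 1.36-fold (adjusted p by limma 0.263), met the p threshold and put it just outside the fold threshold, as the member probe nearest to Myst2 A_44_P283366. Saline rat 5 was the only saline rat above any heroin rat, and without it the probe passed both thresholds. So did 2352 of 25548 tested probes without that rat, against 694 of 25555 with it. The other Hdac2 probe in the direction of the gene, A_44_P139916, had 91.1, 111 and 129 in heroin rats and 79.8, 85.0, 102, 110 and 84.1 in saline rats. Its difference was 0.26 (SE 0.13), and 0.00 after quantile normalization, and the groups overlapped. The 2 probes followed each other weakly across rats, with r = 0.15 and rho = 0.27.

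Hdac1 had 1 probe, A_44_P400400 (chr5:148683965-148684326), with a lowest, median and highest signal of 10.7, 13.7 and 16 in heroin rats and 11.1, 13.0, 14.1, 16.3 and 11 in saline rats. The saline values covered nearly the whole heroin range. The difference of 0.07 (SE 0.14) changed sign with the scaling, to -0.18 after quantile normalization and -0.15 with the 75th percentile.

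Hdac5 is a class IIa deacetylase that neuronal activity moves out of the nucleus. At Hdac5 A_44_P1024065 (chr10:91281773-91282241) the heroin rats had a lowest, median and highest signal of 24.2, 29.6 and 39.6, and the saline rats 24.7, 28.7, 26.7, 23.8 and 20.8. Heroin rats 3 and 6 had the highest values, and the groups overlapped. The difference was 0.32 (SE 0.16), or 0.06 after quantile normalization. The neighbouring probe in the direction of the gene, A_44_P339659, differed by 0.15 (SE 0.16).

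Of the probes against the direction of their gene, Hdac5 A_44_P473020 had a lowest, median and highest signal of 0.800, 1.20 and 1.43 in heroin rats and 0.658, 0.990, 0.925, 1.49 and 0.738 in saline rats, a difference of 0.33 (SE 0.21). Saline rat 5 had the highest value of all, and without it the difference was 0.50 and the probe passed both thresholds. Without that rat 2352 of 25548 tested probes passed, against 694 of 25555 with it. Across rats the correlations below are over group-centred values of all 11 rats. Hdac5 A_44_P473020 ran opposite to its neighbour A_44_P339659, with r = -0.75 and rho = -0.79, and r = -0.66 after quantile normalization. Hdac2 A_44_P491158 differed by 0.28 (SE 0.25), and its heroin mean of 0.696 ± 0.369 (SD, n = 6) rested on heroin rat 6, at 1.43 against 0.456 to 0.638 in the other heroin rats. It followed the overlapping A_44_P139916 on the opposite strand with r = 0.67 and rho = 0.59, or 0.55 and 0.35 after quantile normalization. Heroin rat 6 had the highest signal of all rats at both probes.

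Dnmt1, the maintenance methyltransferase, gave opposite signs at its 2 probes. At A_44_P125681 the heroin rats had a lowest, median and highest signal of 2.53, 2.58 and 2.90, and the saline rats 2.41, 2.05, 2.11, 2.53 and 2.18. Of the heroin rats, 5 of 6 lay above the highest saline rat, and the difference was 0.22 (SE 0.11), but 0.06 after quantile normalization and 0.01 with the 75th percentile. At A_44_P388853, nearer the start of the gene, the heroin rats had 1.72, 2.07 and 2.23 and the saline rats 2.93, 2.65, 2.12, 1.88 and 2.23. The difference was -0.21 (SE 0.14), and -0.38 after quantile normalization. The ratio of the first to the second probe within an array was 1.15 to 1.51 in heroin rats (median 1.27) and 0.775 to 1.35 in saline rats (median 0.976), and 2 of 6 heroin rats exceeded the highest saline rat. Its log2 difference was 0.43, and 0.44 after quantile normalization. The groups overlapped in that ratio, which was not tested, and it does not tell which of the 2 probes differed. Averaged, Dnmt1 differed by 0.01 (SE 0.11).

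Dnmt3a, the de novo methyltransferase of neurons, had 1 probe, A_44_P374741 (chr6:26881322-26881381). The heroin rats had a lowest, median and highest signal of 0.765, 0.931 and 1.33, and the saline rats 0.678, 0.811, 0.628, 1.95 and 0.605. Saline rat 5 had the highest value of all rats, while 3 of the other 4 lay below every heroin rat. The difference was 0.24 (SE 0.27) with that rat, and without it the probe passed both thresholds. Leaving out that rat also raised the calls over all tested probes from 694 of 25555 to 2352 of 25548.

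**Figure D2:**
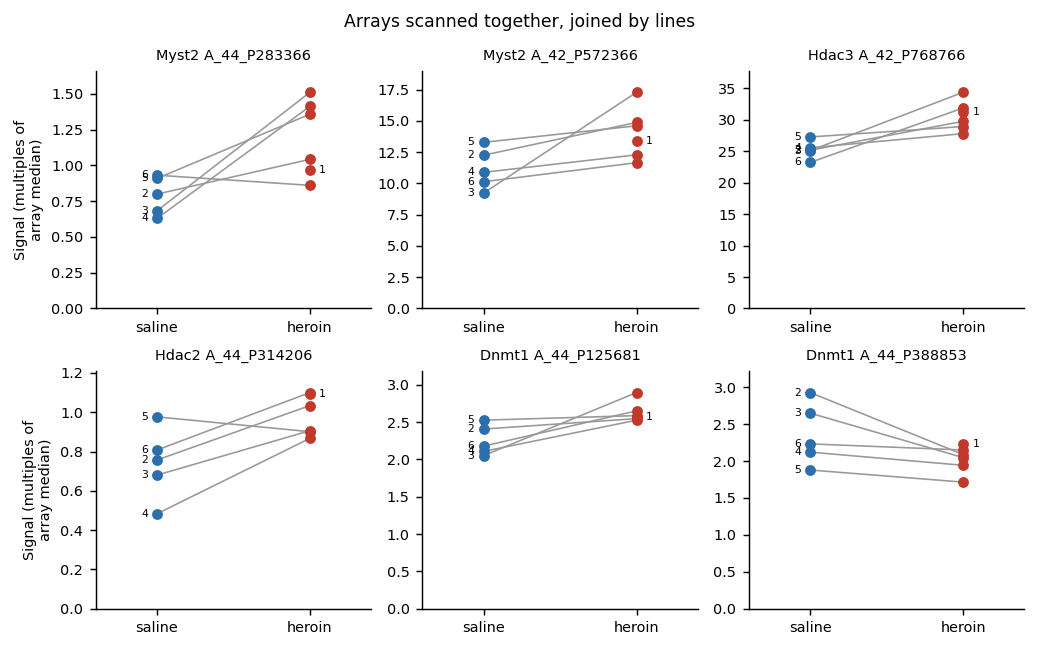
Signal in multiples of the array median at 6 member probes, with the saline rats on the left and the heroin rats on the right, and lines joining arrays with the same replicate number, which were scanned together. Heroin rat 1 had no partner, and 4 of 5 lines rise for Myst2 A_44_P283366, 5 of 5 for Hdac3 A_42_P768766 and Dnmt1 A_44_P125681, and 0 of 5 for Dnmt1 A_44_P388853.

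Arrays with the same replicate number were scanned together, which gave 5 scan groups that held a rat of each kind. Within them Myst2 A_44_P283366 was higher in the heroin rat in 4 of 5, with a median log2 difference of 0.58 and a range of -0.11 to 1.17, and in 4 of 5 after quantile normalization. Hdac2 A_44_P314206 was higher in 4 of 5, by -0.12 to 0.84, and likewise in 4 of 5 after quantile normalization. Dnmt1 A_44_P388853 was lower in all 5 under both, by -0.49 to -0.05 with median scaling and -0.79 to -0.01 after quantile normalization. The share of all probes lower in 5 of 5 was not counted, so nothing stands beside that count.

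The probes with a signal well above the array median depended on the scaling. Myst2 A_42_P572366 was higher in 5 of 5 with median scaling, by 0.14 to 0.91, and in 2 of 5 after quantile normalization. Hdac3 A_42_P768766 went from 5 of 5, by 0.09 to 0.46, to 3 of 5, and Hdac3 A_44_P398014 from 5 of 5 to 4 of 5. Dnmt1 A_44_P125681 also went from 5 of 5 to 4 of 5. Over 25256 tested probes with a value in every pair, 8.81% were higher in 5 of 5 with median scaling and 4.35% after quantile normalization.

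Over the whole set, 16 of 19 probes were higher in heroin rats, against 78.7% of all tested probes. That count has to be read against a shift of the arrays as a whole, since the median difference of all tested probes was 0.18. The median member difference was 0.28, and 13 of 19 lay above the median of all probes. Quantile normalization gave a member median of 0.09 against 0.01, and the 75th percentile 0.06 against -0.03, with 16 and 13 of 19 probes higher. Over all tested probes, 51.7% and 41.7% were higher under these scalings. Without the 2 probes against the direction of their gene, 14 of 17 were higher (14 after quantile normalization, 11 with the 75th percentile), with a median of 0.26. Among the 7 acetyltransferase probes the median was 0.33 and 5 were higher (6 after quantile normalization, 4 with the 75th percentile). Among the 9 deacetylase probes it was 0.28 and 9 were higher (8 and 7), or 7 of 7 (6 and 5) in the direction of the gene. Among the 3 methyltransferase probes it was 0.22 and 2 were higher under each scaling. By limma 7 of the 19 had an unadjusted p under 0.05, against 4729 of 25555 probes, and 0 of either had an adjusted p under 0.05, with members from 0.263 to 0.879. The methods' t-test also gave 0 of each. Weighting the arrays by their quality gave 8429 probes and 10 of the members at an adjusted p under 0.05, with heroin rat 6 and saline rat 5 given the lowest weights (0.26 and 0.34).

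**Figure D3:**
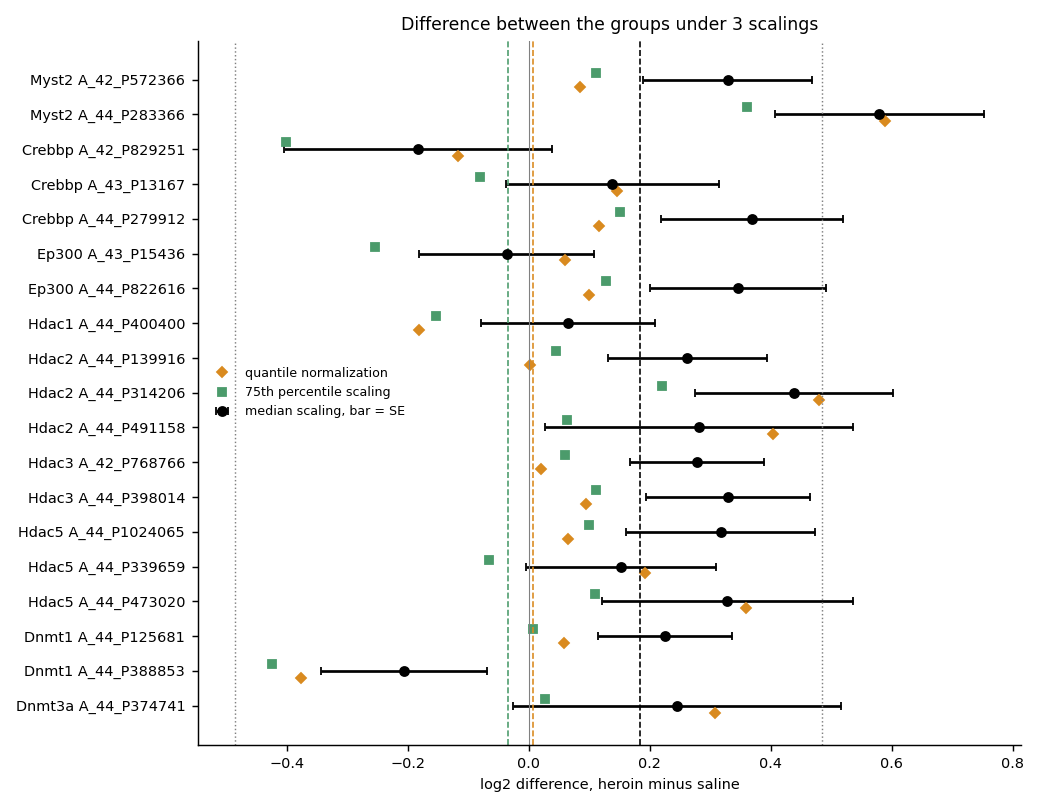
The log2 difference, heroin minus saline, of each member probe after median scaling (black, bars are limma's standard error), quantile normalization (orange) and scaling to the 75th percentile (green), with dashed lines at the median of all tested probes under each and dotted lines at 1.4-fold. Only Myst2 A_44_P283366 lies past 1.4-fold with median scaling, at 0.58, and most bright probes move toward 0 when the scaling changes.

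The shift depended on the signal. Tested probes with a mean log2 signal under the array median had a median difference of -0.03, and 45.9% of them were higher in heroin rats. Probes between 1 and 4 array medians had 0.14, those between 4 and 16 had 0.23, those between 16 and 64 had 0.25, and brighter ones 0.24, where 97.3% were higher. The 8 dim member probes had a median of 0.20, and the 5 between 4 and 16 array medians, which include Myst2 A_42_P572366 and Hdac1, had 0.33. Hdac3 A_42_P768766 and Hdac5 A_44_P1024065, both between 16 and 64, had a median of 0.30, and Hdac2 A_44_P139916, the only brighter one, 0.26. Quantile normalization brought the medians of these ranges to between -0.01 and 0.04. Of the 8 member probes above 4 array medians, 7 differed from the median of their range by less than their own standard error, and Hdac1 differed from it by -0.16. Myst2 A_44_P283366 exceeded the median of its range by 0.60 and Hdac2 A_44_P314206 by 0.46, in a range where 4.41% of tested probes passed both thresholds. Dnmt1 A_44_P388853 differed from its own by -0.35. The mean log2 signal of Myst2 A_44_P283366 lay just under the cut at 1 array median. In the range above that cut the median was 0.14 and 2.59% of tested probes passed, so its excess depends on the cut.

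**Figure D4:**
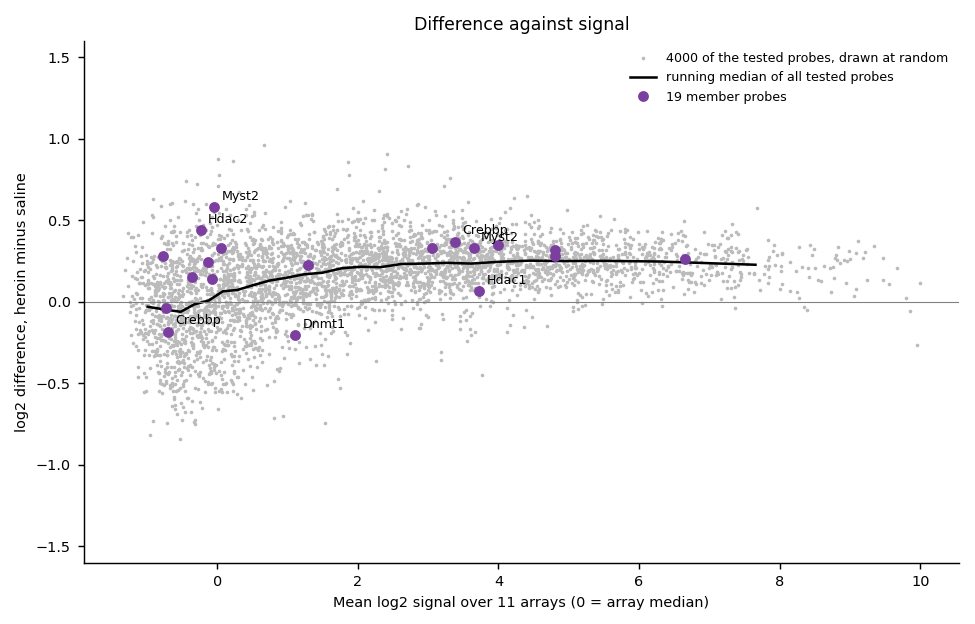
The log2 difference, heroin minus saline, against the mean log2 signal over 11 arrays, where 0 is the array median, for 4000 tested probes drawn at random (grey) and the 19 member probes (purple), with the running median of all tested probes as a line. The line lies near 0 among dim probes and near 0.25 among bright ones.

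Across the 11 rats, the probes of named genes whose pattern was most like that of Myst2 A_44_P283366 were Rbm7 (r = 0.91, rho = 0.80), Mrpl15 (0.88 and 0.84), Elmo1 (0.86 and 0.80), Insig2 (0.86 and 0.80) and Dctn5 (0.84 and 0.91). These are correlations of group-centred, quantile-normalized log2 signals, given as a description over 25251 probes, for which the 99th percentile of r was 0.74. The second Myst2 probe ranked 3893 among them, with r = 0.46. Summed signal of the endothelial markers had r = -0.63 with the listed Myst2 probe, and that of the neuronal markers 0.34. The other marker lists had -0.37 (microglia), -0.33 (astrocytes), 0.28 (striatum), 0.10 (blood) and 0.07 (oligodendrocytes). Their part in the Myst2 difference was not tested.

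Other genes of histone acetylation and DNA methylation were read from 6 lists drawn up by function, which had 58 genes on the array and 83 tested probes. Of these, 1 passed both thresholds, against 2.72% of all tested probes. Rbbp7, a histone-binding subunit of Sin3, NuRD and other deacetylase complexes, had a lowest, median and highest signal of 15.9, 19.6 and 32.7 in heroin rats and 12.8, 12.3, 12.5, 18.0 and 14.8 in saline rats at A_44_P254229 (chrX:52730866-52730925). Heroin rat 6 had the highest value and saline rat 5 overlapped with the heroin rats. Its mean was 21.0 ± 6.2 (SD, n = 6) against 14.1 ± 2.4 (SD, n = 5), a log2 difference of 0.55 (SE 0.18). The adjusted p by limma was 0.263. The exact permutation test, two-sided, gave p = 0.0173 on these same values, uncorrected for the 83 probes. Since the probe was named for passing the thresholds, that p is no independent evidence. After quantile normalization the difference was 0.29 and the probe no longer passed, nor did it with the 75th percentile (0.33), without heroin rat 6 (0.41), or without saline rat 2, 3 or 4 (0.50 to 0.52). The study had this probe on its own list from these arrays.

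The remaining 82 probes passed in neither direction. Of all 83, 72 were higher with median scaling, 44 after quantile normalization and 37 with the 75th percentile. Over all tested probes these shares were 78.7%, 51.7% and 41.7%. The 83 had median differences of 0.21, 0.01 and -0.01. The list medians were 0.25 for other acetyltransferases (12 probes), 0.22 for other deacetylases (18 probes), 0.16 for the partners of Myst2 in its complexes (8), 0.20 for subunits of deacetylase complexes (28), 0.14 for acetyl-lysine readers (8) and 0.22 for other DNA methylation and demethylation genes (9). An unadjusted limma p under 0.02 was found for 9 of the 83, all higher in heroin rats, and 8 of them were under 1.4-fold. The share of all probes under 0.02 is not given here. With limma's p under 0.05 there were 14 of the 83, against 4729 of all 25555 tested probes. The partners of Myst2, which scaffold the enzyme and direct it to histones, had 2 of 8 probes above the median of all probes.

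**Figure D5:**
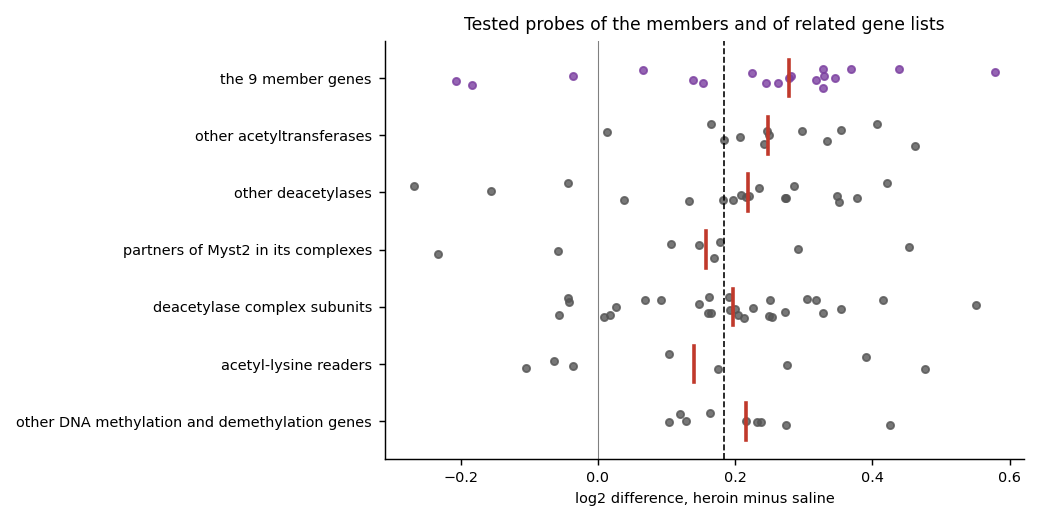
The log2 difference, heroin minus saline, of each tested probe of the 9 member genes (purple) and of 6 lists of related genes (grey), with a red line at the median of each list and a dashed line at the median of all tested probes, 0.18. The list medians lie between 0.14 and 0.28, and the probe farthest to the right among the related genes is Rbbp7, at 0.55.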

How the data were processed

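The authors deposited for each array the scanner's spot intensities, from Cy3-labelled copies of 500 ng of RNA (Feature Extraction 9.5.1.1, as the headers state), corrected for background and not scaled between arrays. A ratio per probe and rat, relative to the array's 50th percentile and the gene's median, was deposited too and served as an alternative. No read counts exist for arrays, and the number of arrays limits the precision.

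Outlying spots (99 to 231 an array) and controls were removed, a floor of 5 was applied, signals were expressed relative to the 50th percentile of the non-control probes of the array and put on the log2 scale, and repeated spots were averaged. A probe was detected where at least 0.5 of its spots were well above background. The 25555 probes detected on all 11 arrays, with usable spots on at least 2 arrays of each group, were tested with limma 3.58.1 (lmFit, eBayes, two-sided) in R 4.3.3 with Benjamini-Hochberg adjustment, in place of the methods' ANOVA. Standard errors are limma's. The fit was tested on simulated data with known changes. Noise there was independent between probes and no shift of whole arrays was added, so that test does not give the error rate in these arrays.

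Groups and replicate numbers came from the sample titles. The labels tie each array to a rat. The methods give 12 arrays, and 11 were analysed here. Positions are those of the probes in build rn3. Gene strands and current names came from RefSeq (GRCr8), which covered all 9 genes.

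The members and lists were chosen with earlier results of these data known. Named were all members with every probe, the called probes of the related lists, and the 5 probes of named genes most correlated with the listed Myst2 probe. Alternatives were quantile normalization, the 75th percentile as the scale, normexp (offset 50), the authors' relative values, other detection filters, a t-test as in the methods, array weights, robust eBayes with a trend, a replicate block, arrays scanned together as a random block, averaging the probes of a gene, and leaving out each rat. Leaving out heroin rat 6 and saline rat 5 together, omitting the probes against the direction of their gene, and the ranges of signal were added after seeing the data.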

Additional observations from a re-analysis of the deposited data

Results flagged for a closer look

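In 5 of the 38 sets of values tested (19 probes in 2 groups) the highest rat stood apart from the others of its group. A rate of 1 in 20 would give about 1.9 of 38 if the sets were independent. They share the same 11 arrays, and heroin rat 6 recurs among the 5, so the count cannot be read as an excess. The measure is the gap to the nearest rat as a share of the whole range of the group, on signals before the log2 scale. It was 0.756 for heroin rat 6 at Crebbp A_44_P279912, with a signal of 16.4 array medians against 11.6 in the nearest rat. At Ep300 A_44_P822616 it was 0.779 for the same rat, with 24.0 against 17.7. At Hdac2 A_44_P491158, the probe against the direction of its gene, it was 0.814 for heroin rat 6 again, with 1.43 against 0.638. After quantile normalization heroin rat 6 was still the highest heroin rat at these probes, with 9.93 against at most 9.55, 10.5 against at most 10.1 and 6.53 against at most 5.46 on the log2 scale. This array had the lowest median signal and the lowest array weight, and the part of either in these values was not tested.

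At Dnmt1 A_44_P125681 the measure was 0.661 for heroin rat 3, with 2.90 against 2.65. After quantile normalization that rat was no longer the highest, with 7.39 against at most 7.46 on the log2 scale. At Dnmt3a A_44_P374741 it was 0.847 for saline rat 5, with 1.95 against 0.811, and after quantile normalization 6.93 against at most 5.69 on the log2 scale.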

How the results depend on the processing

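Of 415 values of single member probes under the alternatives, 401 moved by less than the spread between rats and 14 by more. All 14 came with the 75th percentile or quantile normalization. Other detection filters, the t-test and robust eBayes leave a probe's difference as it was, so their values among the 401 could not move. None of the probes past both thresholds changed sign, but 8 values at 4 other probes did. These were Hdac1 (-0.15 with the 75th percentile, -0.18 with quantile normalization), Crebbp A_43_P13167 (-0.08) and Hdac5 A_44_P339659 (-0.07) with the 75th percentile, and Ep300 A_43_P15436 under 4 alternatives (0.01 to 0.06). Myst2 A_44_P283366 passed both thresholds under 20 of 22 alternatives. Scaling to the 75th percentile gave 0 member calls, a member median of 0.060 and a median of -0.011 for the related lists. Quantile normalization gave 1 member call, Myst2 A_44_P283366, and a member median of 0.094. In the related lists it gave 0 calls and a median of 0.0085, and over all probes 456 calls. The normexp correction gave 0 member calls and 126 calls in all. The calls over all probes split into 458 higher of 694 as reported, 210 of 456 after quantile normalization, 122 of 126 with normexp and 33 of 779 with the 75th percentile. Without the detection filter 1560 probes passed, with detection in at least 1 group 1066, and with the methods' t-test 309. Array weights gave 3 member calls, 3 in the related lists and 2489 in all, and averaging the probes of a gene gave 0 member calls. Leaving out each rat gave 1 to 4 member calls, a member median of 0.23 to 0.33, 0 to 6 calls and a median of 0.15 to 0.26 in the related lists, and 342 (without saline rat 2) to 2352 calls in all. The highest of each came without saline rat 5, where Hdac2 A_44_P314206, Hdac5 A_44_P473020 and Dnmt3a joined Myst2. Without both heroin rat 6 and saline rat 5 there were 3 member calls (Myst2, Hdac2 A_44_P314206 and Dnmt3a), 7 in the related lists and 2699 in all. The cause of these changes was not tested.

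Group-centred values of same-numbered rats correlated at 0.38, -0.13, 0.35, 0.02 and -0.24 for numbers 2 to 6, and 2 of 5 saline rats correlated best with their own number, so the numbers were not taken as pairs. With the replicate block, which drops heroin rat 1, there were 1 member call, 2 calls in the related lists and 791 of 25252 in all, a member median of 0.27 and 0.63 for Myst2 A_44_P283366. Intensities near background limit the dim probes most, since the smallest member signal was 2.30 times the lowest well above background.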
